A study of Mus musculus with 4 samples.

Results

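Pou5f1, Nanog, Utf1, Dppa3, Dppa4, Dppa5a, Prdm1, Prdm14, Tfap2c and Tcl1 are factors of pluripotent cells and of primordial germ cells, and they were followed here in cultured gonocytes from the mouse. The members were all probe sets of the array that its annotation assigns to one of these names alone. This gave 14 probe sets for 10 genes, among 34945 probe sets for 18193 genes that the annotation names alone. Each gene was read from its brightest probe set, the one with the highest mean log2 value over the arrays, and the other probe sets of Utf1 and Tfap2c are given beside it. Gonocytes are the male germ cells that resume development around birth. They were isolated at 2 days post partum from mouse testes by magnetic selection for the surface protein THY1, and then cultured for 8 h with no serum, growth factors or feeder cells. The 2 RA samples received 100 nM retinoic acid (RA) and the 2 vehicle samples received ethanol, and each sample was hybridised to an Affymetrix Mouse Genome 430v2.0 array. The labels give neither strain nor number of animals and do not say that the samples were independent cultures, so p-values cover only the variation among these 4 samples, part or all of which may be technical.

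Pou5f1 (OCT4), Nanog and their partners form a transcriptional circuit that keeps embryonic stem cells pluripotent, and Pou5f1 and Nanog are also active in primordial germ cells. Prdm1 (BLIMP1), Prdm14 and Tfap2c (AP2-gamma) specify primordial germ cells in the mouse embryo. In the male most of the pluripotency genes are known to decline as these cells become gonocytes in the fetal testis. Retinoic acid acts through nuclear receptors that bind repeats of the motif AGGTCA or close variants, and it is known to lower Pou5f1 and Nanog when embryonic stem cells differentiate.

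The promoters of Tcl1 and Nanog are shown because these were the members whose RA and vehicle arrays did not overlap, and that of Pou5f1 because it is known to hold a site for nuclear receptors. The sequences are from RefSeq, build GRCm38.p6, run 5′ to 3′ on the strand of the gene, and cover 250 bases before to 50 bases after an annotated start. They lie at chr12:105222688-105222987 on the minus strand for Tcl1, at chr6:122707239-122707538 on the plus strand for Nanog and at chr17:35505782-35506081 on the plus strand for Pou5f1. Capitals mark the receptor motif (AGGTCA or AGTTCA) and the core of the octamer motif bound by POU factors (ATGCAAA), each searched on both strands.
Tcl1: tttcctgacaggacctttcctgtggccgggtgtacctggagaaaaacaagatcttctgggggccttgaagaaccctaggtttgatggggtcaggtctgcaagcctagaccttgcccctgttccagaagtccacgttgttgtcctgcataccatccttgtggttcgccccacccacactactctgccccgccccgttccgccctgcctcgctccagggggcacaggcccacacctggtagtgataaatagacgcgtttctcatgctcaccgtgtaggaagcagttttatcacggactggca
Nanog: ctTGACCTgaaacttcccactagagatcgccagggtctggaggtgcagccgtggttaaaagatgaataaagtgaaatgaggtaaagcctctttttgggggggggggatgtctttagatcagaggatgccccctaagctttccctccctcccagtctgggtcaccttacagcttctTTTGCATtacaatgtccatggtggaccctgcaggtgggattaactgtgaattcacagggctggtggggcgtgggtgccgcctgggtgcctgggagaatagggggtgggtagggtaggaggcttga
Pou5f1: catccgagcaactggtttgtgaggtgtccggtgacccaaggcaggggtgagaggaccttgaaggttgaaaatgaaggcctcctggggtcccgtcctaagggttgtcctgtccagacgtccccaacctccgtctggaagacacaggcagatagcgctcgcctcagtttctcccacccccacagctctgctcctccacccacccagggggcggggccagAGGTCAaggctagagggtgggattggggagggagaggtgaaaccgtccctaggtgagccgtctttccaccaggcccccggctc
The Pou5f1 window held AGGTCA 33 bases before the start. The Nanog window held the octamer core in its reverse orientation 75 bases before its start and the receptor motif, also reversed, at its far end. The Tcl1 window held neither set of letters. The table also holds another window for Pou5f1, with neither set of letters, and one of Nanog, with the octamer core and no receptor motif. Of all 32851 windows of this length in the table, 27.7% held AGGTCA or AGTTCA and 4.63% held ATGCAAA. Direct repeats of exact AGGTCA or AGTTCA copies with 1, 2 or 5 bases between were found in 0 of the members' 7 windows. The shares of all windows were 0.0822%, 0.0396% and 0.0396%. Repeats with other variants of the motif were not searched, so these counts do not cover them. The table held windows for 5 of the 10 genes.

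Signals are intensities in arbitrary units as deposited, and their trimmed mean was 125 on each array. The known RA targets Stra8, Cyp26a1, Cyp26b1, Rarb, Dhrs3, Stra6 and Rec8 were read as a check of the treatment. In 7 of 7 the signals of the RA arrays were entirely above those of the vehicle arrays. This held for 14.2% of the 13018 genes above a filter on low values. The median log2 change of the 7 was 2.41, and Rarb was below background on vehicle replicate 2. The list was chosen with earlier results of these data known, so it is not an independent check. Germ cell markers were above background on all arrays for 15 of 15 genes measured, beside 67.4% of all 18193 genes. Among them the RNA helicase gene Ddx4 had signals of 1300 and 1120 on RA arrays and 1310 and 1290 on vehicle arrays. Markers of other cells were also above background on all arrays. The counts were 7 of 9 Sertoli, 4 of 4 Leydig, 7 of 8 peritubular and stromal and 7 of 7 endothelial genes. Among blood cell markers they were 5 of 6 macrophage and leukocyte, 5 of 6 mast cell, 2 of 5 B cell and 3 of 5 T cell genes. Amh and Fshr, of the Sertoli list, were not above it on all arrays. Several of these counts lie near the share of all genes, so they do not show which cells were present. Cells other than germ cells may have been present. The ratio of 3' to 5' signal of the control transcript Actb, a sign of RNA and amplification quality, was 2.08 and 2.32 on RA arrays and 1.72 and 1.73 on vehicle arrays. The part of this difference in the results below was not tested.

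Which of the factors the gonocytes still expressed was read against a background level, since the deposited table gives no detection call. That level was the 95th percentile, on each array, of 126 probe sets for odorant, vomeronasal and taste receptors and hair keratin-associated proteins, genes not known for a role in the neonatal testis. It lay at signals of 6.1 and 14.2 on RA arrays and of 12.6 and 19.3 on vehicle arrays. On every array 8 of the 10 factors were above it, where 67.4% of all 18193 genes were. The 8 were Pou5f1, Nanog, Utf1, Dppa4, Dppa5a, Prdm1, Tfap2c and Tcl1. With the 99th percentile of the same 126 probe sets the count was 6, without Nanog and Utf1. The samples may hold other cells, so the signals are not shown to come from gonocytes alone. Dppa3 and Prdm14 were above it on the replicate 1 arrays only. All 10 passed the filter on low values, a mean signal of at least 16.0 over the arrays, as did 71.6% of all genes. Signals of different probe sets are not on a common scale, so no order of abundance between the factors is given.

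**Figure D1:**
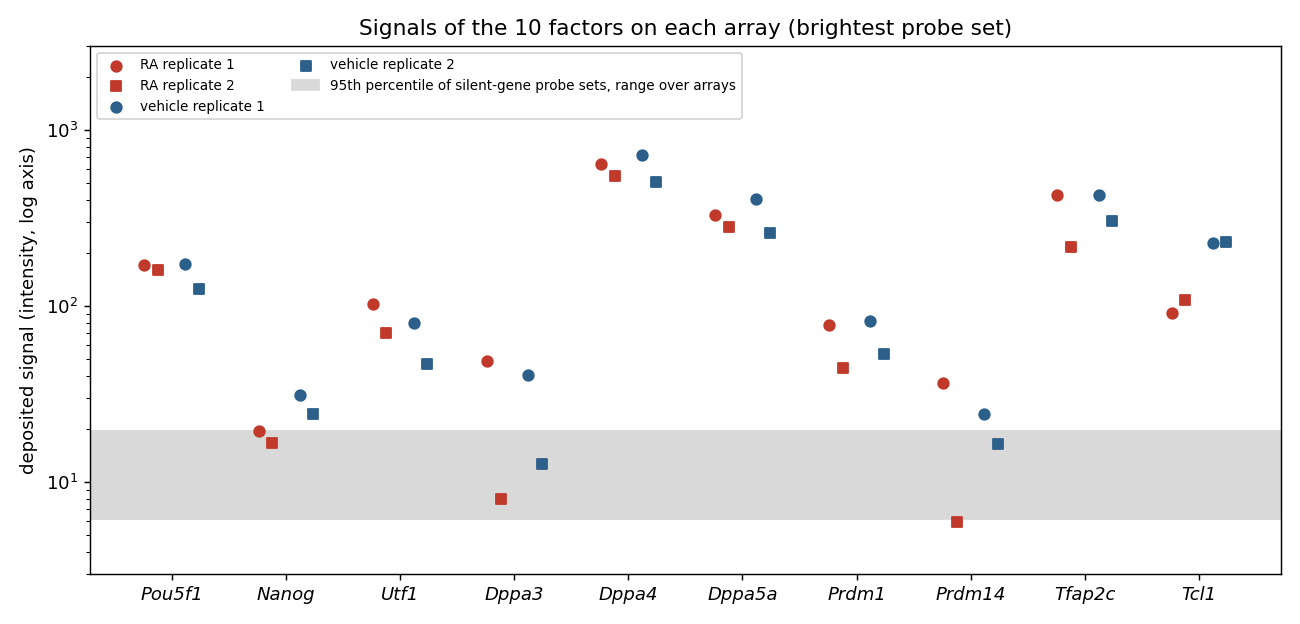
Deposited signal (log axis) of the brightest probe set of each of the 10 factors, with RA arrays in red left of vehicle arrays in blue, circles for replicate 1 and squares for replicate 2; the grey band spans the background levels of the arrays. Tcl1 has both RA points well below both vehicle points, while Dppa3 and Prdm14 have their replicate 2 points within or below the band.

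Compared between RA and vehicle, the factors showed a lower level for Tcl1, with the groups clearly apart, and a smaller difference for Nanog near the background level. The RA and vehicle arrays overlapped for the other 8. The RA signals were entirely below the vehicle signals in 2 of 10 factors, where this held for 12.6% of the 13018 genes above the filter. They were entirely above in 0 of 10 factors, where this held for 14.2% of genes. With 1 array left out, which makes a separation easier to reach, the count below became 5 of the 9 factors still above the filter without RA replicate 1, beside 34.9% of genes, and 6 of 10 without vehicle replicate 2, beside 28.2% of genes. The count above became 4 of 10 without RA replicate 2, beside 39% of genes, and 4 of 10 without vehicle replicate 1, beside 34.6% of genes. Leaving out either of these arrays turned the log2 changes of Dppa3, Dppa4, Dppa5a, Prdm1 and Tfap2c positive. The median log2 change of the 10 factors was -0.13, with 8 negative and 2 positive, beside a median of 0.01 over all genes. At an unadjusted p under 0.05 in limma, 1 factor was lower and 0 were higher, where 1.29% of genes were lower and 1.44% higher. At an adjusted p under 0.05 in limma, 0 factors were called, as were 0% of all genes. Over all 27022 probe sets tested the smallest adjusted p in limma was 0.162, with 303 higher and 446 lower at an unadjusted p under 0.05. Exact permutation of the group labels, two-sided, reaches a p of 0.333 at the lowest in this design.

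**Figure D2:**
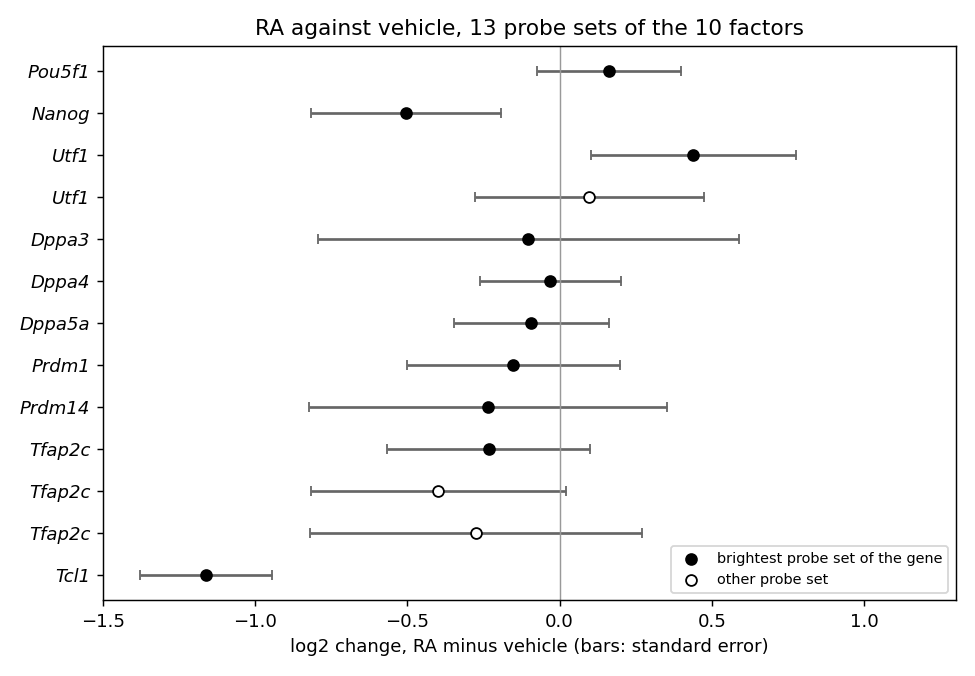
Log2 change, RA minus vehicle, on the log2(signal + 5) scale with its standard error from limma, for the 13 probe sets of the 10 factors above the filter, filled for the brightest probe set of a gene and open for the others. Tcl1 stands at -1.16 and Nanog at -0.50, and the bars of most other probe sets cross 0.

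Tcl1 encodes a coactivator of the kinase AKT that supports proliferation of embryonic stem cells, where it is a known target of POU5F1, and it is also known from lymphocytes. Its signals were 91.0 and 108 on RA arrays, against 226 and 230 on vehicle arrays. The RA values thus lay well below the vehicle values, and the gap between groups was wide beside the spread within them. The log2 change was -1.16 ± 0.22 (SE, 2 arrays per group), a 2.24-fold lower level. It did not pass over all probe sets (limma, adjusted p = 0.626). Without RA replicate 2 the log2 change was -1.28 and passed (limma, adjusted p = 0.0281), but that fit had 1 RA array, which is assumed to vary like the vehicle arrays. It did not pass without RA replicate 1, vehicle replicate 1 or vehicle replicate 2 (limma, adjusted p = 0.1, 1 and 1). By the size of its decrease Tcl1 ranked 27th of 13018 genes. In samples of many cells, fewer cells of a type and less RNA per cell cannot be told apart.

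Markers of cells that could carry Tcl1 were read beside it. Of 15 germ cell markers 12 had a negative log2 change, with a median of -0.13 and a summed signal of 11726 and 12075 on RA arrays against 12862 and 12339 on vehicle arrays. These sums did not overlap, but bright genes weigh most in them. Sall4, 1 of the 3 markers with a positive change, had signals of 2310 and 3780 on RA arrays and 2270 and 2530 on vehicle arrays. RA signals were entirely below vehicle signals for 4 of the 15 germ cell markers, beside 12.6% of all genes above the filter. The 4 were the GDNF receptor gene Ret (-1.004 ± 0.191), the repressor gene Zbtb16 (-1.45 ± 0.33), the transcription factor gene Etv5 (-0.41 ± 0.19) and the RNA-binding protein gene Dazl (-0.20 ± 0.21). The other 2 probe sets of Zbtb16 gave -0.63 without overlap and -0.21 with overlap. Those of Etv5 gave -0.60 without overlap and -0.31 with overlap. The other probe set of Ret gave -0.70 without overlap, and that of Dazl gave -0.24 with overlap. Of 5 B cell markers 2 were above background, and the 5 had a summed signal of 56 and 76 on RA arrays and of 59 and 93 on vehicle arrays. The 2 were Cd79a (log2 change -0.432 ± 0.370) and Cd79b (-0.284 ± 0.325), both with overlapping groups and with a median of -0.358. Ms4a1 was above background on 2 arrays, Cd22 on 1 and Pax5 on 0. Pax5 had signals of 0.151 and 0.588 on RA arrays and 0.148 and 0.118 on vehicle arrays. Of 5 T cell markers 3 were above background on all arrays, Cd3e, Cd3g and Cd3d, with a median log2 change of 0.131. Cd8a was above it on 2 arrays and Cd4 on 0. The 5 T cell markers had a summed signal of 85 and 190 on RA arrays and of 102 and 166 on vehicle arrays. The part of other cells in the Tcl1 difference was not tested.

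Probe sets for the relatives of Tcl1 were dim or disagreed. Mtcp1, a paralogue that also binds AKT, had signals of 324 and 361 on RA arrays and 336 and 342 on vehicle arrays on its brightest probe set (log2 change 0.01 ± 0.19), with -0.08 and -0.73 on its other 2 probe sets above the filter, the last of which had RA signals entirely below its vehicle signals. Tcl1b1, Tcl1b3 and Tcl1b4, members of the adjacent mouse gene cluster, were above background on 0 arrays each. The 5 genes whose 4 values were most like those of Tcl1, by the smallest root mean square difference of log2 values after each gene's own mean was taken off, were Slc14a1 (0.085), Snap25 (0.094), Ret (0.096), Dclk1 (0.101) and Adpgk (0.112), among 13017 genes compared over 4 arrays. Ret had signals of 254 and 277 on RA arrays and 514 and 562 on vehicle arrays. Probe sets disagreed for Adpgk, with -1.36 on the brightest and -0.02 on the other, and for Dclk1, with values between -0.97 and 0.10.

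Nanog, a homeobox factor of the pluripotency circuit, had signals of 19.4 and 16.6 on RA arrays, against 31.3 and 24.2 on vehicle arrays. The groups did not overlap, but at its lowest the signal was only 1.17 times the background level of its array. That level was also higher with vehicle within each replicate number, at 6.1 and 14.2 on RA arrays and 12.6 and 19.3 on vehicle arrays. The part of background in the Nanog difference was not tested. The log2 change was -0.50 ± 0.31 and did not pass (limma, adjusted p = 1). Pou5f1, the POU factor at the centre of the circuit, had signals of 171 and 159 on RA arrays and 172 and 125 on vehicle arrays. These overlapped, with a log2 change of 0.16 ± 0.24 that turned to -0.06 without vehicle replicate 2. Its lowest signal was 6.51 times the background level.

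Utf1, a chromatin-associated factor of pluripotent cells that is also known from undifferentiated spermatogonia, had signals of 103 and 69.7 on RA arrays and 80.2 and 46.7 on vehicle arrays. The groups overlapped, and the log2 change of 0.44 ± 0.34 did not pass (limma, adjusted p = 1). Leaving out RA replicate 1 gave 0.17 and leaving out RA replicate 2 gave 0.71. Leaving out vehicle replicate 1 gave 0.80, vehicle replicate 2 gave 0.08, and averaging its probe sets gave 0.07. One further probe set gave 0.10 ± 0.38 and was above background on 2 of 4 arrays. The other had signals between 0.116 and 2.16 and was above background on none.

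The 3 Dppa genes, named for their developmental association with pluripotency, differed in how they were detected. Dppa4, a DNA-binding protein that acts with Dppa2, had signals of 637 and 546 on RA arrays and 716 and 507 on vehicle arrays (log2 change -0.03 ± 0.23). Dppa5a, an RNA-binding protein with a KH domain, had signals of 328 and 282 on RA arrays and 407 and 258 on vehicle arrays (-0.09 ± 0.26). For both genes the RA values lay between the vehicle values, at least 13.4 times the background level. Dppa3 (STELLA), which shields the maternal genome from demethylation in the zygote, had signals of 48.3 and 7.96 on RA arrays and 40.3 and 12.6 on vehicle arrays. Its replicates differed 6.06-fold within the RA group and 3.2-fold within the vehicle group, so the log2 change of -0.10 ± 0.69 is poorly determined. Dppa2, the partner of Dppa4, stood at -0.31 ± 0.24. The gene table lists pseudogenes of several factors, 5 of Pou5f1, 2 of Nanog, 2 of Dppa5 and 1 of Dppa3, whose transcripts the probe sets could also bind.

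Of the factors that specify primordial germ cells, Tfap2c and Prdm1 were above background on all arrays and Prdm14 was not. Tfap2c, which acts downstream of Prdm1 in mouse primordial germ cells, had signals of 428 and 216 on RA arrays and 425 and 303 on vehicle arrays. RA replicate 2 was the low array on each of its 3 probe sets, whose log2 changes were -0.23 ± 0.33, -0.40 ± 0.42 and -0.28 ± 0.54. Without that array the brightest stood at 0.25. Prdm1, a repressor of the somatic programme that is also known from lymphocytes and macrophages, had signals of 77.7 and 44.4 on RA arrays and 81.6 and 53.3 on vehicle arrays (-0.15 ± 0.35). Prdm14, a repressor that supports pluripotency gene expression in these cells, had signals of 36.4 and 5.9 on RA arrays and 24.2 and 16.4 on vehicle arrays. Its RA arrays were the highest and the lowest of the 4, and its log2 change of -0.24 ± 0.59 was 0.73 without RA replicate 2.

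The arrays numbered 2 lay below those numbered 1 in both groups for 9 of the 10 factors, where this held for 38.7% of genes above the filter. Tcl1 was the exception, with replicate 2 above replicate 1 in both groups. The log2 difference was -2.04 in the RA group and -1.36 in the vehicle group for Dppa3, and -1.93 and -0.45 for Prdm14. For Tcl1 it was 0.24 in the RA group and 0.03 in the vehicle group. The summed signal of macrophage and leukocyte markers ran the other way, at 573 and 1301 on RA replicates 1 and 2 and at 751 and 1555 on vehicle replicates 1 and 2. That of mast cell markers was 2168 and 6632 on RA arrays and 3344 and 7197 on vehicle arrays. Sertoli markers summed to 3415 and 4356 on RA arrays and 3054 and 3901 on vehicle arrays. For peritubular and stromal markers the sums were 10022 and 13493 with RA and 9528 and 12132 with vehicle. For Leydig markers they were 1509 and 1978 with RA and 1374 and 2495 with vehicle. Endothelial markers did not follow in both groups, with sums of 254 and 317 on RA arrays but 234 and 219 on vehicle arrays. Germ cell markers summed to 11726 and 12075 on RA arrays and 12862 and 12339 on vehicle arrays. The part of these cells in the differences between replicates was not tested.

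**Figure D3:**
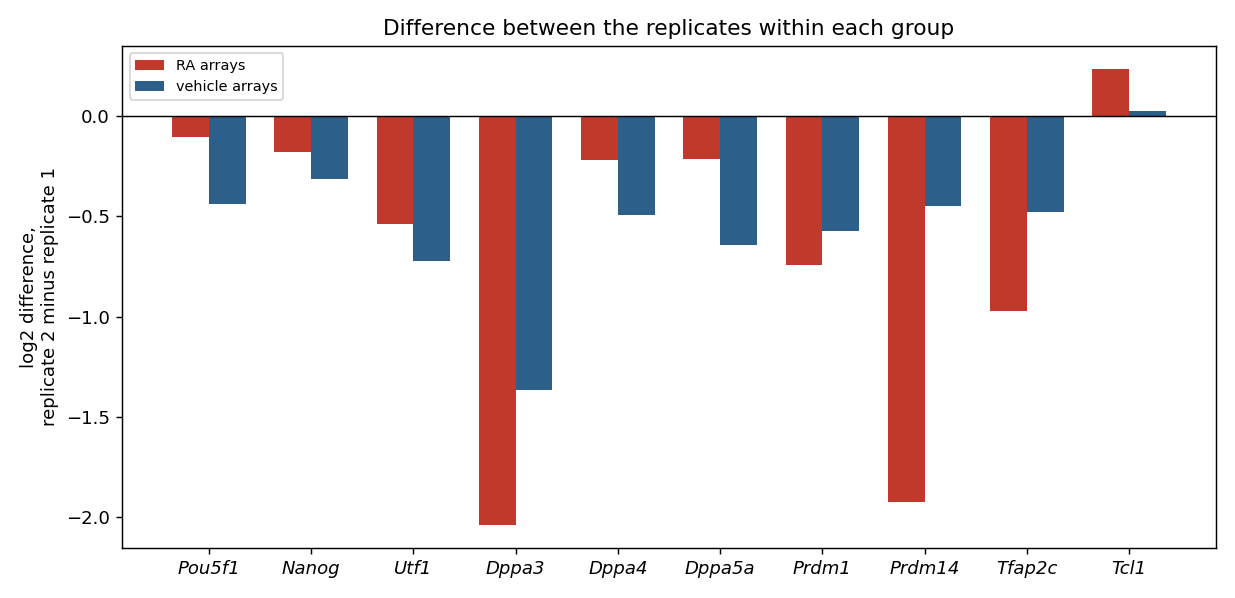
Log2 difference between replicate 2 and replicate 1 for the brightest probe set of each factor, in red for RA arrays and in blue for vehicle arrays. Both bars lie below 0 for 9 factors, down to -2.04 for Dppa3 on RA arrays, and above 0 for Tcl1.

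Other genes of the pluripotency network had log2 changes on both sides of 0, and none passed the test. Of 30 with a probe set of their own 24 were above the filter, 13 negative and 11 positive, with a median log2 change of -0.01. The RA signals were entirely below the vehicle signals in 4 and entirely above in 4, beside the 12.6% and 14.2% of all genes given above. Over all probe sets 0 passed in limma. At an unadjusted p under 0.05 in limma, 2 of the 24 were lower and 1 higher, beside 1.29% and 1.44% of all genes. The 3 largest changes were in Nr0b1, Nr5a2 and L1td1. Nr0b1, an orphan nuclear receptor that restrains POU5F1 in embryonic stem cells, had signals of 67.5 and 45.4 on RA arrays against 11.2 and 11.1 on vehicle arrays. Both vehicle signals were below background, so the level with RA was at least 2.93-fold higher, a bound set against the background level of each vehicle array on the log2(signal + 5) scale. Nr5a2, a nuclear receptor that binds Pou5f1 regulatory sequence, had signals of 37.9 and 59.3 on RA arrays against 87.7 and 103 on vehicle arrays. Its log2 change was -0.93 ± 0.30, and its other 3 probe sets gave -0.48 to -0.98 with groups that did not overlap. L1td1, an RNA-binding protein of pluripotent cells, stood at 0.78 ± 0.44 with overlapping groups.

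The other genes of the network whose groups did not overlap are named after their values were seen. Lin28a, which blocks let-7 maturation, had signals of 262 and 254 on RA arrays and 385 and 335 on vehicle arrays (log2 change -0.47 ± 0.19, and -0.59 on its other probe set). The DNA demethylase gene Tet1 (-0.63 ± 0.30) and the MYC family gene Mycn (-0.43 ± 0.21) were also lower. Myc itself (0.44 ± 0.19), the corepressor gene Trim28 (0.33 ± 0.22) and the reprogramming factor gene Klf4 (0.21 ± 0.20) were higher. Other probe sets above the filter gave -0.45 with overlap and -0.71 without for Tet1, and -0.27 with overlap for Mycn. Those of Trim28 and Klf4 gave 0.31 and 0.28 without overlap. Sox2, the partner of POU5F1 on DNA, had signals of 186 and 134 on RA arrays and 168 and 123 on vehicle arrays, with a log2 change of 0.13 ± 0.26. None of these passed over all probe sets.

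**Figure D4:**
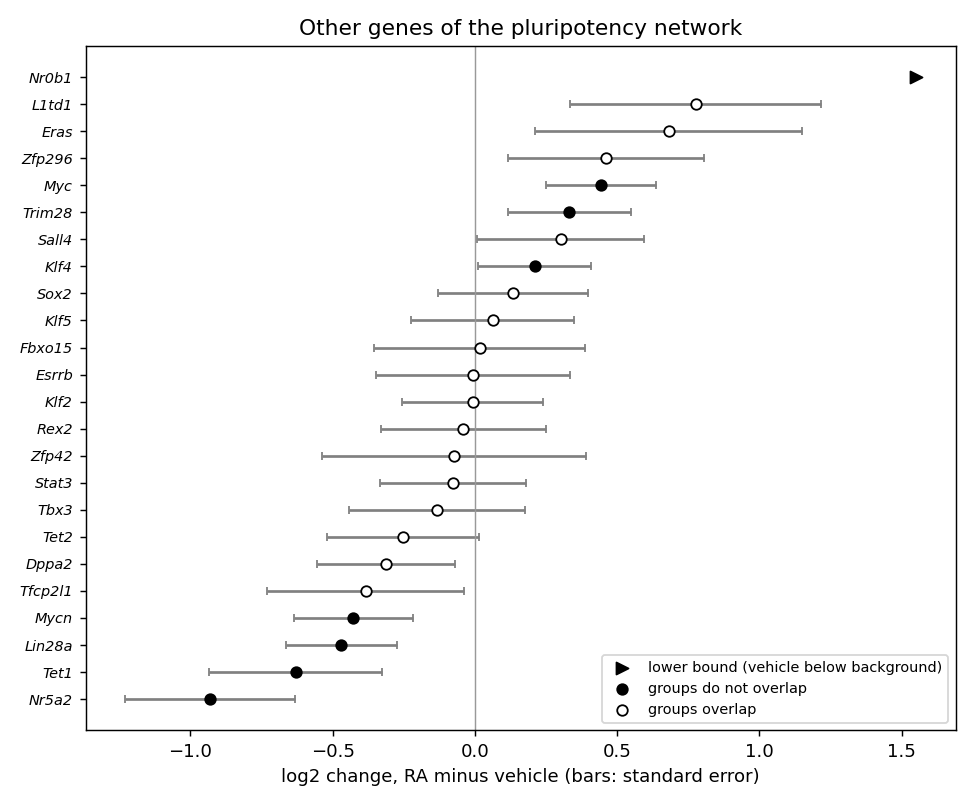
Log2 change, RA minus vehicle, with its standard error from limma, for the 24 other genes of the pluripotency network above the filter, filled where both RA arrays lie on one side of both vehicle arrays. The triangle gives Nr0b1 at its lower bound of 1.55, and the values of the other genes lie on both sides of 0, from -0.93 for Nr5a2 to 0.78 for L1td1.

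Of 20 other primordial germ cell genes with a probe set of their own, 19 were above the filter, with a median log2 change of -0.05. Groups did not overlap for 1 of the 19, beside 12.6% of all genes lower and 14.2% higher. Over all probe sets 0 passed in limma. At an unadjusted p under 0.05 in limma, 1 of the 19 was lower and 0 were higher, beside 1.29% and 1.44% of all genes. The gene without overlap was Tfap2a, a relative of Tfap2c, with signals of 95 and 87.4 on RA arrays against 178 and 120 on vehicle arrays. Its log2 change was -0.65 ± 0.26, and its other 2 probe sets gave -0.63 and -0.69. The receptor gene Kit stood at 0.63 ± 0.37 and the piRNA pathway gene Piwil4 at -0.55 ± 0.29, both with overlapping groups. Among 12 relatives of the factors above the filter, Tfap2a included, the median was -0.11. Of these 3 were lower and 1 higher without overlap, beside the same shares of 12.6% and 14.2% of all genes. The higher was Prdm10 at 0.36 ± 0.19 (-0.13 on its other probe set). The lower ones beside Tfap2a were Prdm16 at -0.36 ± 0.21 and Prdm15 at -0.15 ± 0.19, and the other 3 probe sets of Prdm16 gave -0.59, -0.25 and 0.05.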

How the data were processed

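Expression was measured in 4 samples of mouse gonocytes, 2 with RA and 2 with vehicle. Per the labels' protocols, about 75 ng of total RNA was amplified with the NuGEN Ovation system V2, and GCOS 1.2 quantified the images. The table the authors deposited holds a linear intensity for each probe set on each array; its probe summary and scaling are not given in the sources used here. Trimmed means (2% at each end) were 125 on each array, so no further normalization was applied. After 64 control probe sets were left out, 45037 remained. Of these 34945 named 1 gene, 932 several and 9160 none; symbols of 34741 were updated by Entrez ID to a table of assembly GRCm38.p6.

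RA was compared with vehicle by limma 3.58.1 (R 4.3.3, lmFit and eBayes with an intensity trend) on log2(intensity + 5), two-sided, over the 27022 probe sets with a mean signal at or above the 40th percentile, with Benjamini-Hochberg adjustment over these. Fold changes on this scale understate those of dim genes. The fit was tested on simulated data. Precision is limited by the number of arrays. The members, lists and background level were chosen with earlier results of these data known. By the rule for named genes, all 10 factors were named, then per list the 3 largest changes above the filter; further genes are named after their values were seen. Lists for Sertoli, Leydig, peritubular and stromal, endothelial, mast and T cells were read as markers; T cell markers had a median log2 change of 0.13 over 3 genes. Alternatives covered normalization, pseudocount, filter, variance model, the replicate number, left-out arrays and the choice of probe set. Plots used matplotlib 3.10.9 and Python 3.11.15.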

Additional observations from a re-analysis of the deposited data

How the results depend on the processing

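The count of 0 probe sets called by limma held with quantile normalization, equal array medians, pseudocounts of 1 and 20, no filter, the 60th percentile filter and no intensity trend. It ran from 0 to 138 with arrays left out (96 without RA replicate 1, 138 without RA replicate 2) and was 558 with the replicate block. The replicate numbers are not stated to mark shared preparations and rest on 2 pairs; the differences between replicates correlated across probe sets between the groups (r = 0.532), and genes are not independent. Tcl1 kept its direction in all 15 settings, with log2 changes from -1.28 to -1.04, and passed with the replicate block (-1.16, limma, adjusted p = 4.45e-06, 1 residual degree of freedom) and without RA replicate 2, where the lone RA array is assumed to vary like the vehicle arrays. Nanog and Utf1 also kept their direction, Utf1 between 0.07 and 0.80. Signs of uncalled factors turned with an array left out, over ranges of -1.12 to 0.92 for Dppa3, -0.28 to 0.22 for Dppa4, -0.42 to 0.23 for Dppa5a, -0.52 to 0.22 for Prdm1, -0.46 to 0.73 for Prdm14, -0.72 to 0.25 for Tfap2c and -0.058 to 0.38 for Pou5f1. RA replicate 2 was the array left out for positive values of Dppa3, Dppa4, Dppa5a, Prdm1, Prdm14 and Tfap2c, as was vehicle replicate 1 for these except Prdm14, and vehicle replicate 2 for the negative value of Pou5f1. Dppa4 also turned with equal array medians (0.059). The cause was not tested. Prdm14 gave no value without RA replicate 1 or with the 60th percentile filter, nor did Nanog and Dppa3 with that filter, since they fell below the filter. Factors whose RA arrays lay below all vehicle arrays numbered 2 (1 with the 60th percentile filter, which left out Nanog; 2 to 6 with an array left out), and those above numbered 0 (0 to 4 with an array left out). Factors above background on every array numbered 8, or 6 with the 99th percentile of the silent genes, 8 with the 90th and 7 if every probe set had to be. Dim factors, Nanog, Dppa3 and Prdm14, are limited by signal over background.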
